A study of Mus musculus with 9 samples.

Results

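Immediate early genes are switched on within minutes of a signal, before any new protein has to be made, and 9 of them from 3 families were followed here. They were Nr4a1, Nr4a2 and Nr4a3, Egr1, Egr2 and Egr3, and Ier2, Ier3 and Ier5, taken by name from the 54752 gene identifiers of the count table. All 9 were found and all 9 passed the filter on low counts, beside 17931 genes tested in all. RNA came from B16F10, a mouse melanoma cell line, cultured in DMEM with 10% FBS. There were 3 libraries with the guide Tada2bsg1 (guide 1) and 3 with the guide Tada2bsg2 (guide 2), both given the genotype Tada2b knockout, and 3 with a guide named for GFP (GFPsg) given as WT. The labels name no treatment, time or serum starvation for any group, and do not say whether the cells were clones or whether replicates were separate cultures, so the p-values cover variation among these libraries alone, and that variation could be technical. Tada2b encodes an adaptor protein of SAGA, a complex that acetylates histones at promoters.

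The NR4A proteins are orphan nuclear receptors that bind DNA without a known activating hormone, so that their activity follows how much of them a cell makes. In melanocytes their genes are induced when melanocortin binds its receptor MC1R and raises cyclic AMP, which acts through the factor CREB at cyclic AMP response elements (CRE). The EGR proteins are zinc finger transcription factors whose genes respond mainly to the ERK kinase cascade through serum response factor (SRF) and its partners, which bind the CArG box. The IER proteins are small and unlike nuclear receptors or zinc finger factors: Ier2 and Ier5 encode related nuclear proteins, of which IER5 can activate the heat shock factor HSF1, and Ier3 encodes a stress-induced protein that modulates apoptosis.

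Library totals ran from 70.6 to 76.9 M counts (M, 1e6). Tada2b mRNA itself was 0.16 ± 0.05 higher on the log2 scale in the libraries labelled knockout than in GFPsg (SE; edgeR adjusted p = 0.0101). It was higher with guide 1 (0.30 ± 0.06, edgeR adjusted p = 0.000213) and not called with guide 2 (0.02 ± 0.06, edgeR adjusted p = 0.806), and the guides differed from each other (−0.28 ± 0.05, guide 2 minus guide 1, edgeR adjusted p = 0.00671). An edit that disrupts the protein need not lower the mRNA, so the value is no test of the genotype, and the 6 libraries are referred to as labelled knockout. All 8 melanocyte markers examined were present in every library, with summed levels of 5127 to 5368 CPM with guide 1, 7261 to 7505 CPM with guide 2 and 21031 to 21849 CPM in GFPsg (CPM, counts scaled to a library total of 1 M). All 8 were called lower in both guides against GFPsg (median log2 change −1.88), where 26.3% of all tested genes were called lower. They were also called lower with each guide alone. Of 10 leukocyte markers, 7 stayed under 10 reads in every library, with Ptprc, Itgam and Tyrobp at 0. The 3 that were tested were called, with Cd68 (1.09) and Lyz2 (1.08) higher and Fcer1g (−1.19) lower on the log2 scale. The summed level of the leukocyte list was 6.00 to 7.06 CPM in the libraries labelled knockout, against 3.62 to 3.90 CPM in GFPsg. Of 10 fibroblast and endothelial markers 4 stayed under 10 reads. Of the 5 that were tested, Pdgfrb (1.45), Col1a2 (1.68) and Des (1.33) were called higher on the log2 scale. Vwf (−2.11) was called lower, and 1 was not called. The summed level of the fibroblast and endothelial list was 25.0 to 28.2 CPM in the libraries labelled knockout, against 10.4 to 12.7 CPM in GFPsg. The part of these lists in the results was not tested.

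The promoters of the NR4A genes are shown first because these 3 genes moved in 1 direction and because a CRE is the element through which cyclic AMP reaches them. RefSeq windows on GRCm38.p6 (the assembly of mm10), from 250 bases before to 50 after a transcription start, matched 6 of the 9 genes. No window was available for Egr1, Egr3 and Ier2, so these genes were not searched for motifs. Capitals mark the CRE core, TGACG or its reverse complement CGTCA. The Nr4a1 window is chr15:101266596-101266895 on the plus strand, the Nr4a2 window chr2:57123954-57124253 on the minus strand and the Nr4a3 window chr4:48045055-48045354 on the plus strand.
Nr4a1: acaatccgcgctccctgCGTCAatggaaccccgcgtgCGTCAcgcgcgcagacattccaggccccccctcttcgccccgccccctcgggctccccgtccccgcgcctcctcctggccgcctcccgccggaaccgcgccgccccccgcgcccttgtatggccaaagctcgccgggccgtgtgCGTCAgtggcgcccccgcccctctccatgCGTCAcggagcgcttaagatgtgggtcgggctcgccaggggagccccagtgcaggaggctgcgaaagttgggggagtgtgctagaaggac
Nr4a2: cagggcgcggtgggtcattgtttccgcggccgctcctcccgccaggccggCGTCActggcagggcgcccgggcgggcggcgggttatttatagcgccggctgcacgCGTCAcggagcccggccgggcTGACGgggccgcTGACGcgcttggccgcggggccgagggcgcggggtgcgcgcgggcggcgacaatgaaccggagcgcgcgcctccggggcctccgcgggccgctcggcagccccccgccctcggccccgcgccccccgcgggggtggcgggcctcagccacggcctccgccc
Nr4a3: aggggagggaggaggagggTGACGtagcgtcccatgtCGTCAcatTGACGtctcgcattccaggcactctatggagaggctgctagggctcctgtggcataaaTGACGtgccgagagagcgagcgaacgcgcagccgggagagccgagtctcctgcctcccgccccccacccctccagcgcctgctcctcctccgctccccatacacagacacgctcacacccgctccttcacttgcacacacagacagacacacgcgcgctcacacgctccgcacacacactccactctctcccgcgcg
Each of the 3 windows held 4 core matches, on either strand, whereas 20.8% of all 32841 windows of this length held at least 1 and 0.231% at least 4. G and C made up 72.3% of the bases in Nr4a1, 81.7% in Nr4a2 and 64.7% in Nr4a3. The shares over all windows were not matched for base composition. Counted from the transcription start, they began at −233, −213, −69 and −40 in Nr4a1, at −200, −144, −123 and −111 in Nr4a2 and at −231, −213, −205 and −147 in Nr4a3. None of the 3 held the palindromic CRE TGACGTCA, which contains the core on both strands and was found in 1.79% of windows, or a CArG box, found in 1.63%. The EGR site GCGNGGGCG, present in 5.55% of windows, had 1 match in Nr4a1 and 1 in Nr4a2. The windows of Ier3 and Ier5 held no match to these motifs, to the NR4A element AAAGGTCA (1.51% of windows) or to the AP-1 site TGANTCA (7.81%), each searched on both strands. Of 5 windows for Egr2, which partly overlap, 4 held a CArG box, at 2 positions in the genome, and 3 held 2 CRE core matches each. These are matches of letters in a short window, not measured binding.

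All 3 NR4A mRNAs fell, Egr1 and Ier5 rose, and Ier2 fell. edgeR called 6 of the 9 genes in the contrast of both guides against GFPsg, 4 lower and 2 higher, where 51.0% of all tested genes were called (26.3% lower and 24.7% higher). With library size as the scaling 63.3% of all called genes were higher, against 48.4% with TMM scaling, and the 6 calls kept their directions. The median log2 change of the 9, that of Ier3, was −0.10, against −0.02 over all tested genes. By the tests of single genes the NR4A family and Egr1 went opposite ways. The same 6 genes were called in the same directions with guide 1 (48.4% of all genes called, 23.8% higher and 24.5% lower) and with guide 2 (45.1%, 22.1% higher and 23.0% lower), but the guide contrasts share the GFPsg libraries. CPM ranges of the 6 libraries labelled knockout and the 3 GFPsg libraries did not overlap for these 6 genes, as for 44.0% of all tested genes, and overlapped for Egr2, Egr3 and Ier3.

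**Figure D1:**
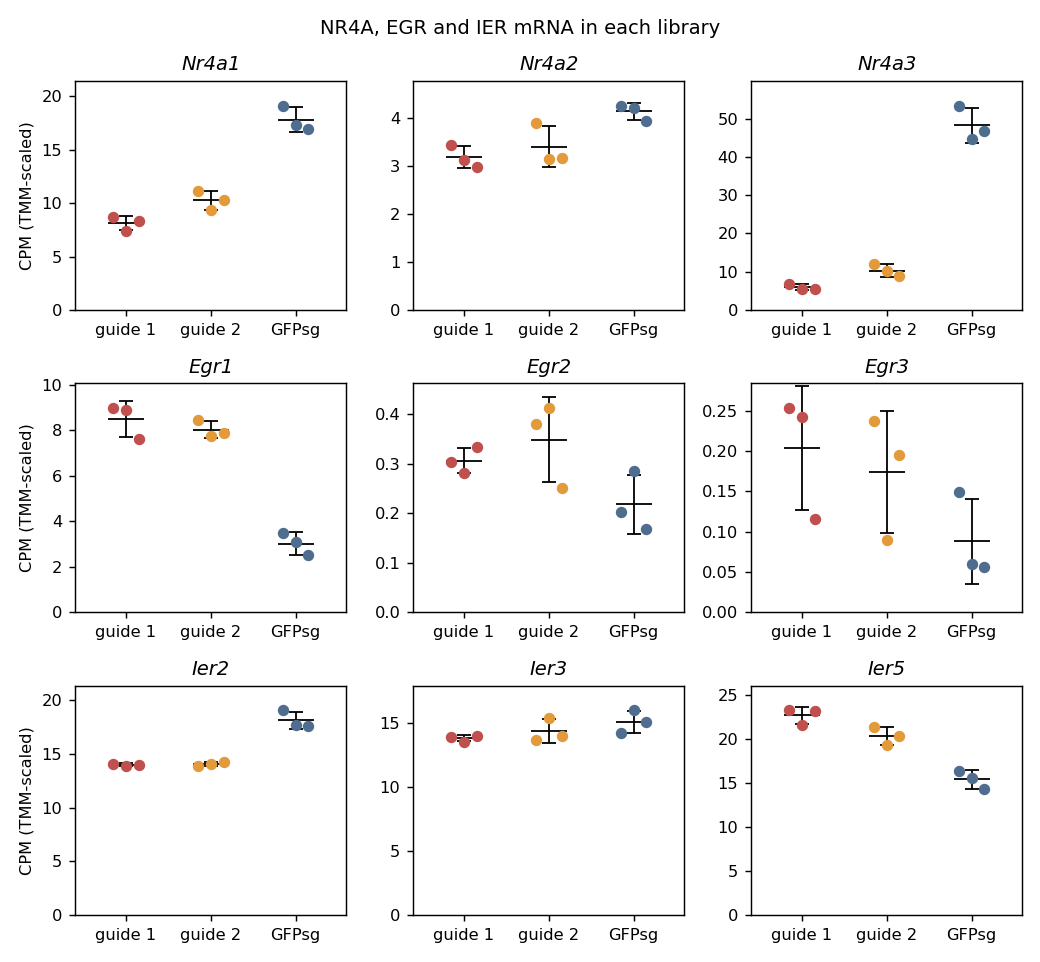
TMM-scaled CPM (linear axis from 0) of each of the 9 genes in the 3 libraries of guide 1, guide 2 and GFPsg; points are libraries, and bars are the mean and SD (n = 3). The points of Nr4a3 lie between 5.38 and 12.0 CPM with the guides and between 44.6 and 53.4 CPM in GFPsg, while those of Egr1 lie between 7.59 and 8.98 CPM with the guides and between 2.52 and 3.49 CPM in GFPsg.

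Nr4a3 (ENSMUSG00000028341, chromosome 4, 48045153 to 48086447, plus strand) had the largest change of the 9. It stood at 6.81, 5.54 and 5.38 CPM with guide 1, at 12.0, 10.1 and 8.87 CPM with guide 2 and at 53.4, 44.6 and 46.7 CPM in GFPsg. Every library labelled knockout was below every GFPsg library, and every guide 1 library was below every guide 2 library. The log2 change was −2.63 ± 0.08, a 6.18-fold fall (SE; edgeR adjusted p = 3.4e-14), and ranked 44th from the lowest of 17931 genes. It was 8.16-fold with guide 1 (log2 change −3.03 ± 0.11) and 4.67-fold with guide 2 (−2.22 ± 0.10). These RNAs came from whole cultures, in which fewer cells that express a gene and less RNA per cell cannot be told apart.

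Nr4a1 (ENSMUSG00000023034, chromosome 15, 101254269 to 101274795, plus strand), also called Nur77, fell with both guides. Its values were 8.72, 7.42 and 8.30 CPM with guide 1, 11.2, 9.36 and 10.3 CPM with guide 2 and 19.1, 17.3 and 17.0 CPM in GFPsg. The 3 groups did not overlap, in the same order as for Nr4a3. The log2 change was −0.96 ± 0.07 in the contrast of both guides, 1.95-fold (edgeR adjusted p = 2.03e-09), with −1.13 ± 0.08 for guide 1 and −0.80 ± 0.08 for guide 2.

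Nr4a2 (ENSMUSG00000026826, chromosome 2, 57106830 to 57124003, minus strand), which encodes Nurr1, a factor needed by dopamine neurons, was the least abundant of the family in GFPsg and changed least. It was counted at 3.43, 3.13 and 2.98 CPM with guide 1, 3.89, 3.14 and 3.17 CPM with guide 2 and 4.26, 4.21 and 3.93 CPM in GFPsg. The highest guide 2 library lay just under the lowest GFPsg library. The log2 change of −0.33 ± 0.10 (edgeR adjusted p = 0.00791) was called under all 14 alternatives run for the contrast of both guides (adjusted p up to 0.0497). With guide 2 the change was −0.28 ± 0.11 (edgeR adjusted p = 0.0480), and that call was lost in 13 of 15 alternatives (adjusted p from 0.0165 to 0.194). With guide 1 it was −0.38 ± 0.11 (adjusted p = 0.00943) and was lost without Tada2bsg1 replicate 3 (adjusted p = 0.0524).

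Levels per kilobase of exon (RPKM, here CPM over the summed exon length in kilobases) allow the 3 genes to be set against each other. Summed over the family, NR4A mRNA stood at 4.09 ± 0.34 RPKM with guide 1, 5.49 ± 0.57 RPKM with guide 2 and 14.2 ± 1.11 RPKM in GFPsg (mean ± SD, n = 3). Nr4a3 made up 24.1 ± 1.51% of that sum with guide 1 and 31.3 ± 2.43% with guide 2, against 56.9 ± 1.21% in GFPsg. Nr4a1 made up 56.8 ± 2.10% with guide 1 and 53.4 ± 2.61% with guide 2, against 35.9 ± 0.74% in GFPsg. Thus, per kilobase, Nr4a3 was the most abundant family member in all 3 GFPsg libraries and Nr4a1 in all 6 libraries labelled knockout. With guide 2 this order depends on the summed exon length. In CPM, Nr4a3 was above Nr4a1 in replicate 1 (12.0 against 11.2) and replicate 2 (10.1 against 9.36) of guide 2. It was below Nr4a1 in replicate 3 (8.87 against 10.3). Nr4a2 rose as a share, to 19.2 ± 0.97% and 15.2 ± 0.32% with the guides against 7.21 ± 0.48% in GFPsg, although its own level was lower.

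**Figure D2:**
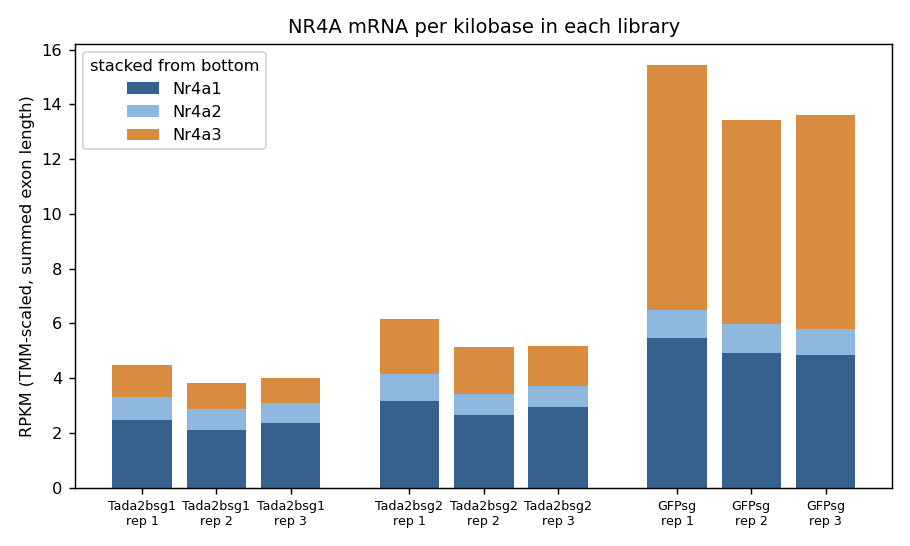
Stacked bars of Nr4a1 (bottom), Nr4a2 and Nr4a3 (top) mRNA per kilobase of exon (RPKM, axis from 0) in each of the 9 libraries. The sum is 3.81 to 6.15 RPKM in the libraries labelled knockout and 13.4 to 15.4 RPKM in GFPsg, and the Nr4a3 segment is the largest in the 3 GFPsg bars.

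Egr1 (ENSMUSG00000038418, chromosome 18, 34859823 to 34864984, plus strand), the founding member of its family and a classic readout of ERK signalling, rose. It was counted at 8.98, 8.91 and 7.59 CPM with guide 1, 8.44, 7.76 and 7.87 CPM with guide 2 and 3.49, 3.07 and 2.52 CPM in GFPsg. The 6 libraries labelled knockout overlapped between guides and all lay above the highest GFPsg library. The rise was 1.45 ± 0.10 on the log2 scale, or 2.73-fold (SE; edgeR adjusted p = 1.49e-09), with 1.49 ± 0.11 for guide 1 and 1.41 ± 0.11 for guide 2.

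Egr2, which directs myelination in Schwann cells, and Egr3 were close to the limit of detection. Egr2 (ENSMUSG00000037868, chromosome 10, 67535475 to 67542188) had 24, 21 and 26 reads with guide 1, 29, 32 and 18 with guide 2 and 15, 19 and 12 in GFPsg. Egr3 (ENSMUSG00000033730, chromosome 14, 70077203 to 70082614) had 20, 18 and 9 reads with guide 1, 18, 7 and 14 with guide 2 and 11, 4 and 4 in GFPsg. Groups overlapped for both genes, and the log2 changes in the contrast of both guides, 0.59 ± 0.31 for Egr2 (edgeR adjusted p = 0.123) and 1.06 ± 0.48 for Egr3 (edgeR adjusted p = 0.0775), were not called. The Egr3 value was called without GFPsg replicate 1 (1.67, adjusted p = 0.0306), Tada2bsg1 replicate 3 (1.22, adjusted p = 0.0483) or Tada2bsg2 replicate 2 (1.23, adjusted p = 0.0429). Over its 14 alternatives the adjusted p ran between 0.0306 and 0.248. At this depth a change in either gene was not resolved. Egr4, the remaining member of the family, had 0 reads in all 9 libraries, which allows up to 3 reads or 0.0450 CPM in a library. Per kilobase, Egr1 made up 93.3 ± 0.20% of the EGR sum with guide 1, 92.7 ± 0.92% with guide 2 and 89.0 ± 1.27% in GFPsg.

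The IER genes split. Ier5 (ENSMUSG00000056708, chromosome 1, 155096361 to 155099636, minus strand), a gene with a single exon, was counted at 23.2, 21.6 and 23.2 CPM with guide 1, 21.4, 19.3 and 20.3 CPM with guide 2 and 16.4, 15.5 and 14.3 CPM in GFPsg. All libraries labelled knockout were above all GFPsg libraries. The rise was 0.48 ± 0.06 on the log2 scale, or 1.40-fold (edgeR adjusted p = 1.25e-06). Ier2 (ENSMUSG00000053560, chromosome 8, 84661331 to 84662852, minus strand), also of 1 exon, was counted at 14.1, 13.9 and 14.0 CPM with guide 1, 13.9, 14.1 and 14.3 CPM with guide 2 and 19.1, 17.8 and 17.6 CPM in GFPsg. The libraries of both guides overlapped and lay below all GFPsg libraries, a log2 change of −0.37 ± 0.05 (edgeR adjusted p = 5.13e-06).

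Ier3 (ENSMUSG00000003541, chromosome 17, 35821684 to 35822923, plus strand) was counted at 13.9, 13.6 and 14.0 CPM with guide 1, 13.7, 15.4 and 14.0 CPM with guide 2 and 14.3, 15.996 and 15.1 CPM in GFPsg. The groups overlapped, and the change of −0.10 ± 0.06 was not called (edgeR adjusted p = 0.154). Per kilobase Ier3 was the most abundant of the 9 genes in every group, at 12.2 ± 0.22 RPKM with guide 1, 12.7 ± 0.82 RPKM with guide 2 and 13.4 ± 0.77 RPKM in GFPsg. The summed IER level was 28.4 ± 0.56 RPKM with guide 1, 28.2 ± 0.57 RPKM with guide 2 and 30.0 ± 0.64 RPKM in GFPsg. Ier5l, a relative of Ier5 outside the 9, had a log2 change of 0.40 ± 0.13 (edgeR adjusted p = 0.0177), a call lost without GFPsg replicate 1 or replicate 3 (adjusted p up to 0.0686). Ier3ip1, which shares only part of its name with Ier3, was not called (−0.13 ± 0.05, edgeR adjusted p = 0.0627). With guide 2 alone Ier5l was not called (0.29 ± 0.15, edgeR adjusted p = 0.14) and Ier3ip1 was called lower (−0.21 ± 0.06, edgeR adjusted p = 0.0139).

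The order of the 9 genes by level per kilobase differed between groups. With guide 1 it ran Ier3, Ier2, Ier5, Nr4a1, Egr1, Nr4a3, Nr4a2, Egr2, Egr3, and no neighbours overlapped between libraries. With guide 2 the order was the same, but Egr1 (1.79 ± 0.08 RPKM) and Nr4a3 (1.72 ± 0.26 RPKM) overlapped. In GFPsg Nr4a3 (8.06 ± 0.77 RPKM) came next after Ier2, ahead of Nr4a1 (5.08 ± 0.33 RPKM) and Ier5 (4.70 ± 0.32 RPKM), which overlapped, and Egr1 (0.675 ± 0.108 RPKM) stood behind Nr4a2 (1.02 ± 0.04 RPKM). Within groups, the library numbered 1 had the highest CPM for 7 of the 9 genes with guide 1, for 6 with guide 2 and for 7 in GFPsg, the NR4A genes among them in every group. The labels give the numbers no meaning, and a fit with the replicate number as a block called the same 6 genes in the contrast of both guides.

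Nr4a3 fell further with guide 1 than with guide 2. In guide 2 against guide 1, 2 of the 9 genes were called, both higher with guide 2, where 3.68% of all tested genes were called and 2.66% called higher. Nr4a3 was 0.80 ± 0.11 higher on the log2 scale with guide 2 (edgeR adjusted p = 0.000295) and kept its call under all 15 alternatives (adjusted p up to 0.00483). Nr4a1 was 0.33 ± 0.08 higher (edgeR adjusted p = 0.0331), but this call was lost with library size as the scaling (adjusted p = 0.0586) and without Tada2bsg1 replicate 2 (0.176), Tada2bsg1 replicate 3 (0.0999), Tada2bsg2 replicate 1 (0.122) or Tada2bsg2 replicate 3 (0.0555). For Egr1 the difference was −0.08 ± 0.10, for Nr4a2 0.10 ± 0.11, for Ier5 −0.16 ± 0.06 and for Ier2 0.01 ± 0.06, none called. All 8 melanocyte markers were also called between the guides, each higher with guide 2, by 0.44 (Dct, an enzyme of melanin synthesis) to 0.66 (Tyr, tyrosinase) on the log2 scale. Their part in the NR4A difference was not tested.

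**Figure D3:**
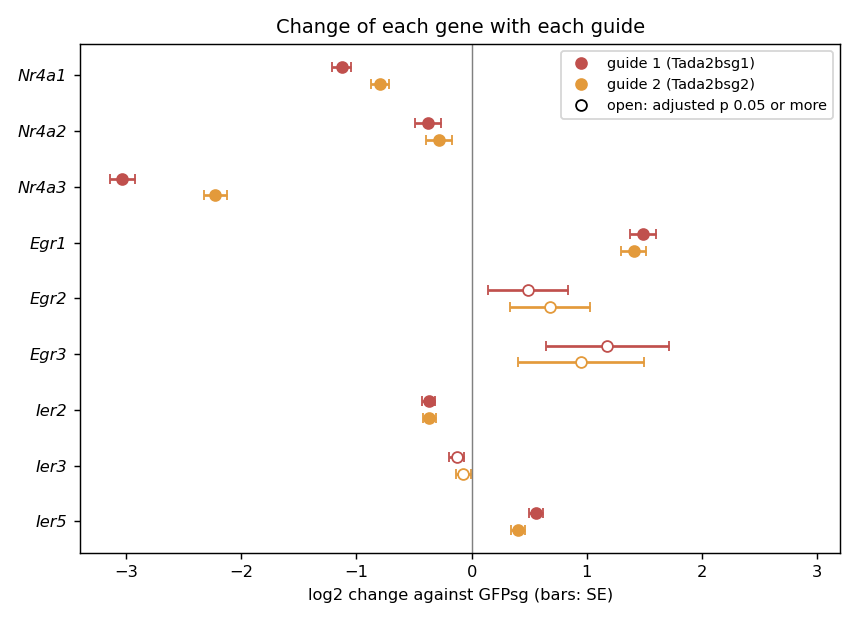
Log2 change of each of the 9 genes against GFPsg with guide 1 and guide 2; bars are SE, and open points have an edgeR adjusted p of 0.05 or more. Nr4a3 lies at −3.03 with guide 1 and −2.22 with guide 2, whereas the points of the guides for Egr1 and Ier2 differ by less than their bars.

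Genes of the melanocortin and cyclic AMP route, which acts upstream of the NR4A family in melanocytes, were also examined. Their part in the NR4A fall, and that of the melanocyte markers, was not tested. Of 12 genes of the melanocortin receptor and cyclic AMP turnover list, 10 were tested, of which 7 fell, 2 rose and 1 was not called (median −0.37, against −0.02 over all tested genes, of which 26.3% fell and 24.7% rose). The 7 include Gnas, whose value is not given because reads of overlapping genes could not be told apart. Overlaps were not searched for this list, so the same limit can hold for its other genes. Mc1r, the melanocortin receptor itself, was at 18.8 ± 0.62 CPM with guide 1, 30.7 ± 0.49 CPM with guide 2 and 100.1 ± 2.05 CPM in GFPsg, a log2 change of −2.06 ± 0.03 (edgeR adjusted p = 2.05e-17), and it too was higher with guide 2 than with guide 1 (0.71, edgeR adjusted p = 6.33e-08). Among phosphodiesterases, which break down cyclic AMP, Pde3a (−1.41), Pde4d (−0.99 ± 0.07) and Pde4b (−0.44 ± 0.04) fell and Pde4a rose (0.91 ± 0.09). The adenylyl cyclase gene Adcy7 also rose (0.22 ± 0.05), while Adcy3 was not called (0.03 ± 0.05). With library size as the scaling the falls of Adcy6 and Adcy9 were not called, which left 5 lower, and Adcy9 also lost its call without GFPsg replicate 1 (adjusted p = 0.0658). In the list of CREB, its coactivators and cyclic AMP kinase subunits, 6 of 15 rose, 4 fell and 5 were not called (median 0.02), a called share to be read against the 51.0% of all tested genes. The rises of Crtc1 and Crebbp lost their calls without GFPsg replicate 2 or replicate 3 (adjusted p up to 0.0846 and 0.169), that of Crebbp also without Tada2bsg1 replicate 2. With library size as the scaling Prkar2b was not called, and 8 were higher and 3 lower. Of all 17931 tested genes that scaling called 5914 higher and 3436 lower. The falls were in Creb1 itself (−0.17 ± 0.03), the catalytic subunit gene Prkacb (−0.29 ± 0.03) and the regulatory subunit genes Prkar1b (−1.05 ± 0.29, at a mean of 0.440 CPM in GFPsg) and Prkar2b (−0.14 ± 0.03). Among the rises were Creb3, which encodes a membrane-bound factor (0.32 ± 0.04), and the regulatory subunit gene Prkar2a (0.29 ± 0.04). The 5 not called were Crem, Crtc2, Crtc3, Prkaca and Prkar1a.

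On the EGR side, 3 of 6 genes of SRF and its partners rose and 3 were not called (median 0.17). Over all tested genes 51.0% were called, and 24.7% were called higher. The part of these genes in the Egr1 rise was not tested. Srf was at 34.5 ± 0.30 CPM with guide 1, 34.3 ± 2.39 CPM with guide 2 and 22.0 ± 1.42 CPM in GFPsg, a rise of 0.64 ± 0.05 (edgeR adjusted p = 1.39e-08). The coactivator gene Mrtfa (0.24 ± 0.06) and Elk1 (0.22 ± 0.04), an ERK-regulated partner of SRF, rose less, and Elk3, Elk4 and Mrtfb were not called. Library size as the scaling gave 5 higher. Under that scaling 5914 of all 17931 tested genes were called higher, against 4426 with TMM. Among ERK cascade kinase and RAS genes, Nras (0.15 ± 0.03), Araf (0.14 ± 0.03), Braf (0.18 ± 0.05) and Rps6ka4 (0.30 ± 0.07) were called higher, and Mapk3 (−0.11 ± 0.04) and Rps6ka1 (−0.19 ± 0.07) lower. The falls of Mapk3 and Rps6ka1 were not called with library size as the scaling, under which 8 of the 15 tested genes of the list were higher. Mapk3 also lost its call in 6 of 9 fits without 1 library (adjusted p up to 0.0986): those without any 1 of the GFPsg libraries, Tada2bsg1 replicate 1 or 3, or Tada2bsg2 replicate 2. Rps6ka1 lost it in 4 of 9 (adjusted p up to 0.149): without GFPsg replicate 1 or 2, Tada2bsg1 replicate 3 or Tada2bsg2 replicate 1. Nab2, a corepressor that EGR proteins induce and that in turn binds them, was at 9.45 ± 0.13 CPM with guide 1, 9.06 ± 0.57 CPM with guide 2 and 5.27 ± 0.46 CPM in GFPsg (0.81 ± 0.07, edgeR adjusted p = 5.4e-08). Nab1, the other EGR corepressor, fell by 0.22 ± 0.03. Rxra, a nuclear receptor with which NR4A1 and NR4A2 can pair, fell by 0.38 ± 0.04, Rxrb was not called (0.04 ± 0.05), and Rxrg had at most 1 read in a library.

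Other immediate early genes mostly rose. Of 47 such genes 44 were tested, of which 28 rose, 9 fell and 7 were not called, with a median log2 change of 0.53 against −0.02 over all tested genes, of which 24.7% rose and 26.3% fell. Library size as the scaling gave 31 higher and 7 lower, where 5914 of all 17931 tested genes were called higher and 3436 lower. The 4 with the lowest p were Plk2, a stress-induced kinase gene (1.58 ± 0.04), Ccn1, a matricellular protein gene (1.97 ± 0.05), the repressor gene Nfil3 (1.52 ± 0.04) and Dusp4, which encodes an ERK phosphatase and fell (−1.31 ± 0.04, all with edgeR adjusted p of 4.25e-14 or below). Other DUSP genes of the list went both ways: Dusp5 (2.92) and Dusp1 (0.91) rose, and Dusp2 (−0.73) and Dusp6 (−0.43) fell. Egr1 lay among the genes that rose, and Nr4a3 below every one of the 44. Klf4, among the 9 that fell, lost its call without GFPsg replicate 1 (−0.16, adjusted p = 0.247), and Homer1 without GFPsg replicate 3 (−0.09, adjusted p = 0.117). Arc and Ptgs2 had 0 reads in all 9 libraries. The genes of this list and of the upstream lists were chosen with earlier results of these data known.

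**Figure D4:**
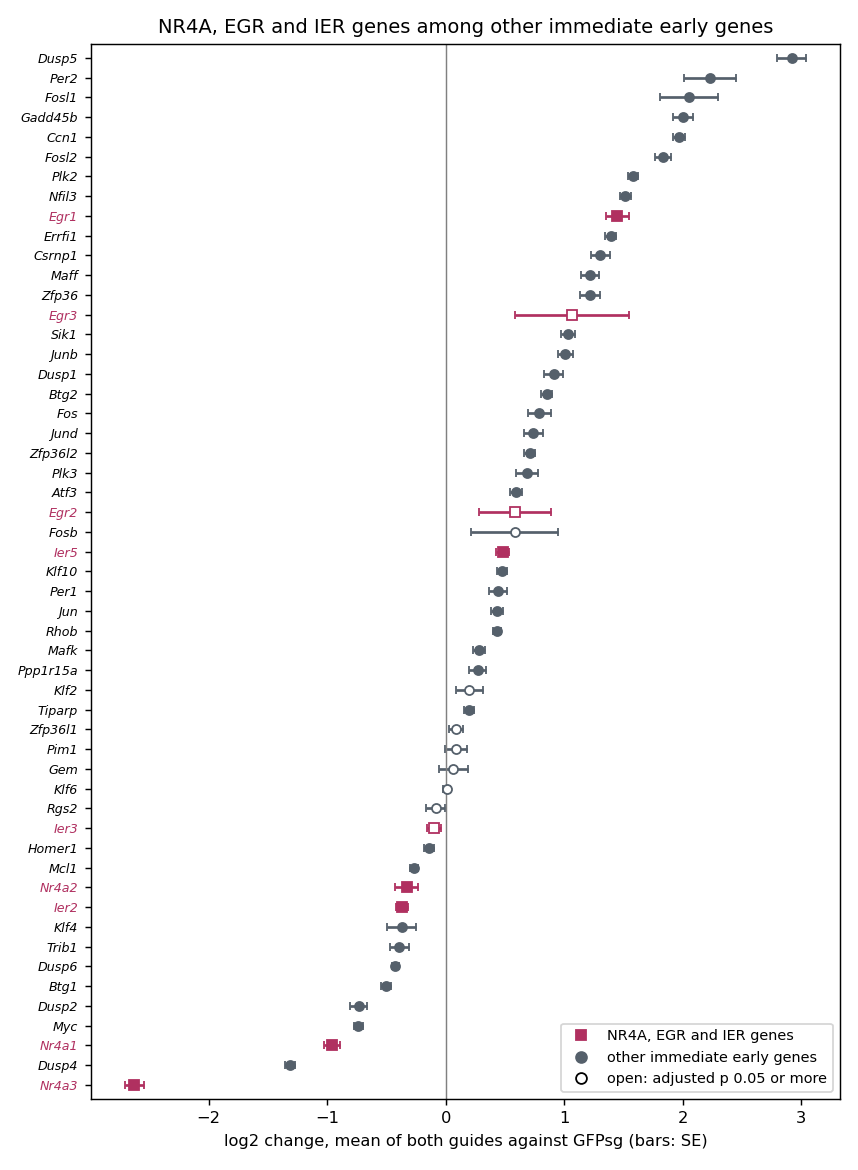
Log2 change of both guides against GFPsg for the 9 genes (squares) and 44 other immediate early genes (circles), sorted from highest to lowest; bars are SE and open symbols have an edgeR adjusted p of 0.05 or more. Egr1 (1.45) is in the upper part and Nr4a3 (−2.63) at the bottom, below Dusp4 (−1.31).

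The genes closest in profile were found by the root-mean-square difference of log2 CPM relative to the GFPsg mean over the 9 libraries, among 9672 genes with a mean of at least 5 CPM. Nr4a1 was closest to Tmc6 (0.05 log2 units) and Sort1 (0.07), Nr4a2 to Tbc1d8 (0.04) and Pcnx (0.05), and Nr4a3 to Cpne4 (0.19) and Ppp1r16b (0.19). Egr1 was closest to Plp2 (0.10) and Micall2 (0.11), Ier2 to Stx5a and Anapc5 (0.03 each), Ier3 to Rpa1 and Dis3l (0.04 each) and Ier5 to Tgif1 and Slc35e4 (0.05 each). The rarely counted Egr2 (Ikzf2, 0.17, and Erc1, 0.20) was about as close to its neighbours as Nr4a3, and Egr3 (Tiam2, 0.41, and Pde4a, 0.41) had the widest differences of the 9. Among the 9 genes the closest pair was Nr4a2 and Ier2 (0.11), and Nr4a3 and Egr1 were the farthest apart (3.35).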

How the data were processed

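Reads per gene were deposited by the authors as raw counts, whole numbers in 1 column per library with no normalization, as the file's values show. The submitters' processing notes name bcl2fastq, HISAT2 and HTSeq, and mm10 as the build. Versions, annotation release and strand setting are not given in the sources used here. Identifiers were matched to GENCODE M21 (54723 of 54752). No exon of the 9 genes overlapped another annotated gene. Overlaps were searched for these 9 genes alone, not for the other listed genes. Without a stated strand setting reads of overlapping genes cannot be told apart. Gnas is therefore left out of the values named, but it is counted in its list.

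Genes were filtered with filterByExpr by group (count minimum 10), which kept 17931 genes, scaled by TMM and tested in edgeR 4.0.16 (R 4.3.3) by the quasi-likelihood F test on 1 fit of all 3 groups, without a replicate block. Benjamini-Hochberg adjustment ran over every tested gene, with calls at an adjusted p under 0.05. An SE is the log2 change over the square root of F. CPM and RPKM were computed here. Replicate pairs differed by more than sampling noise (chi-square per degree of freedom 7.75 to 25.2). The pipeline was tested on simulated counts in which few genes changed, as many up as down, with the same spread for every gene. That test does not cover a change as wide as the one called here. Alternatives were other scalings, no filter, DESeq2 1.42.0, fits of 2 groups, a replicate block and leaving out each library. For the lists beyond the 9 genes, the other scalings and the fits without 1 library were chosen after seeing the data.

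The 9 genes and the gene lists were chosen with earlier results of these data known. Named from each list were up to 4 genes with the lowest p, every gene behind a count of 5 or fewer, and the 2 closest profiles per gene. A few others (the genes lost under an alternative, genes at 0, Pde3a, the DUSP genes other than Dusp4) were named after their values were seen. A result of the ERK cascade list is not reported here, and that list is given without its full counts.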

Additional observations from a re-analysis of the deposited data

Results flagged for a closer look

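Nr4a1 and Nr4a3 differed between the guides by the test of the difference itself. Nr4a3 was higher with guide 2 than with guide 1 by 0.80 on the log2 scale, with the 3 guide 2 libraries above the 3 guide 1 libraries. Nr4a1 was higher with guide 2 by 0.33, likewise without overlap, but its call depended on single libraries and on the scaling.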

How the results depend on the processing

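Of the log2 changes of the 9 genes in 4 contrasts, 500 values under an alternative kept direction and side of the threshold, 19 lost the call, 5 gained it and 5 changed direction. Those that changed direction were small and uncalled: Ier3 with guide 2 under library size alone (0.014), and, over fits without 1 library, guide 2 against guide 1 for Nr4a2 (−0.0083 to 0.16), Egr3 (−0.51 to 0.088), Ier3 (−0.00098 to 0.093) and Ier2 (−0.0034 to 0.024). The number of the 9 called in the contrast of both guides was 6 to 7 without 1 library, 6 to 7 with guide 1, 5 to 6 with guide 2 and 1 to 2 between the guides, where library size alone gave 1; the cause was not tested. Over all genes, guide 2 against guide 1 gave 660 calls, 1070 with no filter, 1705 with the replicate block and 335 to 808 without 1 library. DESeq2 gave no adjusted p for Egr2 and Egr3 between the guides.

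Same-numbered libraries of different groups deviated together weakly (r from −0.012 to 0.10 over 9 pairs, 1 of them over 0.1). For the 18 pairs with different numbers r ran from −0.088 to 0.041. Of 18 best matches, however, 14 were with the own number. The numbers were not taken as pairs because the labels give them no meaning. Whether they mark a shared culture or day was not tested. With the replicate block 6, 6, 6 and 2 of the 9 genes were called in the 4 contrasts, as without it. Over all genes the block gave 1705 calls between the guides, against 660 without it. Library size as the scaling put 63.3% of the calls against GFPsg on the higher side, against 48.4% with TMM, and the median log2 change of all genes to 0.07, against −0.02. Depth limits Egr2 and Egr3, counted at 4 to 32 reads per library.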
